A study of Rattus norvegicus with 7 samples.

Results

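Mitosis genes of cultured rat spinal cord cells were followed over 72 hours of cyclic tensile stress. The group held 44 genes that were listed by name for their part in mitosis, from entry to the division of the cell. The list was drawn up with earlier results of these data known. Measured signals entered the rule through the choice of probe set and the minimum mean signal given below. A gene was measured where the annotation of the array gave exactly its symbol to a probe set, and 38 of the 44 were, out of 10315 genes with a probe set of 1 symbol and a mean signal of at least 100. Nek2, Ndc80, Ncapg, Kif4a and Tpx2 had no such probe set, and Anln stood only on a probe set shared by several symbols. The 38 genes had 56 probe sets in all, 14 genes having more than 1, and each gene was represented by its probe set of highest mean signal. All 38 passed the minimum mean of 100, and the lowest mean was that of Foxm1, with 143.

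The cells were a mixed primary culture from the spinal cords of E15 Sprague-Dawley rat embryos, freed of dorsal root ganglia and meninges, grown for some days on a flexible well bottom and then cyclically stretched. Cells of the same well were not all loaded to the same degree, since a drawn-down membrane does not stretch evenly. RNA was taken before loading (0 h), on the first day after 2, 6, 12 and 24 hours of it and then after 48 and 72 hours, and RNA of several animals was combined for 1 array per time. The 7 arrays were Affymetrix Rat Genome 230 2.0 chips, and the 0 h array was the common baseline that had not yet been loaded. No unloaded culture of a later time was analysed here, so that time under stress and time in culture cannot be told apart.

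In mitosis the duplicated chromosomes are condensed, attached to the spindle and parted between the daughter cells. Cyclin B with the kinase CDK1 starts the process, a checkpoint holds it until all kinetochores are attached, and the anaphase-promoting complex then marks securin and the cyclins for destruction. Many of the genes are transcribed mainly in G2 and M phase, so that in embryonic spinal cord their transcripts are a usual sign of dividing progenitors, glia and other non-neuronal cells. Postmitotic neurons do not divide.

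Of the 38 mitosis genes, 36 fell with hours under stress and none rose. In the median gene the signal at 72 h was 0.215 times that at 0 h, and the ends were 0.0737 for Ttk and 0.850 for Bub3. The signal is the MAS5 intensity of a probe set, a linear value without absolute unit that the authors scaled to the same trimmed mean on each array, and it can be compared between arrays for 1 probe set but not between probe sets. A linear change with hours was tested on log2(signal + 32) with limma over all 17709 probe sets of mean signal 100 or more, and a gene was said to fall or rise where its Benjamini-Hochberg adjusted p was under 0.05. Changes from this line are given as the fitted change over 72 hours, in log2 units. The median fitted change was -1.81 in the mitosis genes, against -0.0021 in all probe sets tested. By the same test 14.1% of all probe sets fell and 15.0% rose. With 1 array per time the p-value measures the scatter around a line and not the spread between cultures, and precision is set by how few arrays there are. In bulk RNA of a mixed culture, fewer dividing cells and less transcript per cell cannot be told apart.

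**Figure D1:**
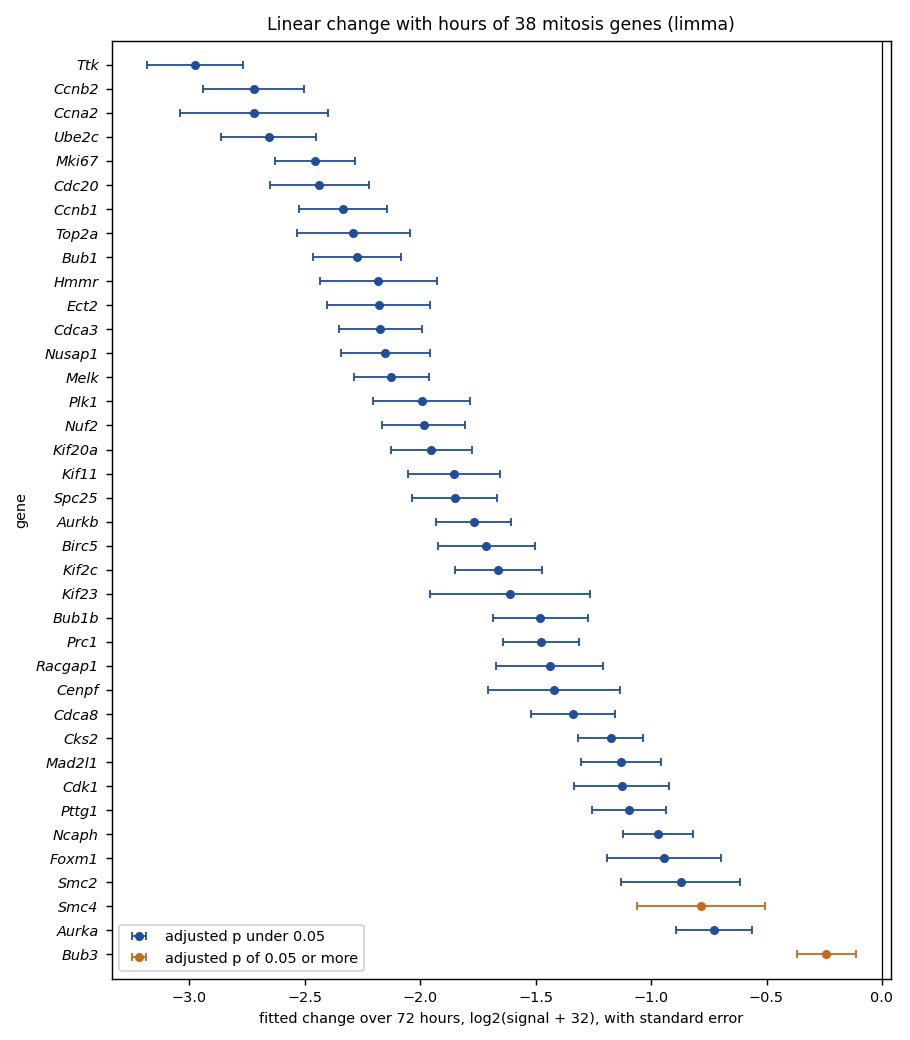
Fitted linear change over 72 hours of log2(signal + 32) for the 38 mitosis genes (points) with its standard error (bars), in order of size. Blue genes passed the test in limma, and orange marks Smc4 and Bub3, which did not; all 38 values lie below 0, from -2.98 for Ttk to -0.24 for Bub3.

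The DNA before the transcription starts of the mitosis genes was also read. In human and mouse cells many G2 and M phase genes carry a cell cycle genes homology region, the letters TTTGAA or TTCGAA, to which the MuvB complex with B-MYB and FOXM1 binds, and CCAAT boxes, to which NF-Y binds. These letters were searched on both strands in a window from 250 bases before to 50 bases after an annotated start per gene. Starts came from RefSeq (build GRCr8), and any further starts annotated for a gene were not searched. This held for the mitosis genes and for all rat genes compared below. A match of CCAAT can share no more than an end base with TTTGAA or TTCGAA. A window was at hand for 33 of the 38 genes, not for Foxm1, Ccna2, Aurkb, Ube2c and Racgap1. The windows of 4 genes are shown by their 250 bases before the start, 5′ to 3′ on the strand of the gene, with the motifs in capitals (ATTGG is CCAAT on the other strand). Ccnb2 and Cdc20 were among the genes that fell most and hold both motifs, Ccnb1 also fell strongly and holds CCAAT only, and Bub3 holds both and did not pass the test. Ccnb2 is at chr8:79981659-79981908 on the minus strand, Cdc20 at chr5:137255800-137256049 on the minus strand, Ccnb1 at chr2:33655226-33655475 on the minus strand and Bub3 at chr1:195760282-195760531 on the plus strand.
Ccnb2: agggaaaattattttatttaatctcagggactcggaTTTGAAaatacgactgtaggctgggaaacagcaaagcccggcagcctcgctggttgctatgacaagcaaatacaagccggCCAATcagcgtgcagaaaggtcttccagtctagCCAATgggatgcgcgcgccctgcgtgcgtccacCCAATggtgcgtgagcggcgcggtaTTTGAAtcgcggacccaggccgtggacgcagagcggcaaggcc
Cdc20: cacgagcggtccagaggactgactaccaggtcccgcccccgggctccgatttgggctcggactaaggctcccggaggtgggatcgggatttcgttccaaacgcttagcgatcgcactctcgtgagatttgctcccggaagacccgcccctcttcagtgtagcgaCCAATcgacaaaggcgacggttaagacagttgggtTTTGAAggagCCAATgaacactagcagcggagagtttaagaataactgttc
Ccnb1: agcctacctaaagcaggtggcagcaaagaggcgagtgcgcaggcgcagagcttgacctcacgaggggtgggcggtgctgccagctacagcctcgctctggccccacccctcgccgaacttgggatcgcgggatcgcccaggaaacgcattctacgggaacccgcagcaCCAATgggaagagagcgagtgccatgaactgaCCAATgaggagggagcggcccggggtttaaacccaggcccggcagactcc
Bub3: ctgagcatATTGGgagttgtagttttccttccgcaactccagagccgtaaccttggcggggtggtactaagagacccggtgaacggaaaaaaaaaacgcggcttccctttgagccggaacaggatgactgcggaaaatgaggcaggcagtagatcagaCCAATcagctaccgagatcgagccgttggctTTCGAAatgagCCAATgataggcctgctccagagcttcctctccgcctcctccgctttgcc

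In Ccnb2 the letters TTTGAA began 214 and 43 bases before the start and CCAAT 134, 101 and 68 bases before it, whereas in Cdc20 TTTGAA began 51 bases and CCAAT 86 and 41 bases before the start. Ccnb1 had CCAAT 82 and 50 bases before its start and neither TTTGAA nor TTCGAA in the window. Bub3 had TTCGAA 61 bases and CCAAT 242, 92 and 50 bases before the start. In Ttk, the gene with the most negative slope, CCAAT began 67 and 30 bases before the start and TTTGAA lay on the other strand 5 bases after it. TTTGAA or TTCGAA was found in 24 of the 33 windows (72.7%), against 19.5% of the windows of 27457 rat genes. CCAAT was found in 25 (75.8%), against 37.7%, and at 2 or more places in 19 (57.6%), against 11.5%. Both kinds were found in 21 (63.6%), against 7.83%. High shares could be foreseen from the list, since many G2 and M phase genes are known to carry these letters. The 27457 genes were not limited to those with a signal on the arrays. A link between the motifs and the decline was not tested. A match is a run of letters and not a shown binding site, and an annotated start need not be the one used in these cells.

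Genes fell with and without these motifs in the 1 window searched. The 21 genes with both had a median fitted change of -1.71, and 19 of them fell, Bub3 and Smc4 being the others. The 3 genes with TTTGAA or TTCGAA only (Bub1b, Mad2l1 and Nuf2) all fell, with a median of -1.48. The 4 genes with CCAAT only (Kif11, Ccnb1, Cdca3 and Kif20a) all fell, with a median of -2.06. The 5 genes with neither (Ncaph, Bub1, Aurka, Melk and Kif2c) also all fell, with a median of -1.66, and Bub1 (-2.27) and Melk (-2.13) had the largest declines of these 5. No test was made between these groups of genes.

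Foxm1 is the transcription factor of G2 and M phase genes, and it fell less than most of them. Its signals were 187, 196, 150.4, 181, 107, 89.6 and 91.3 over the 7 arrays from 0 to 72 h, and the signals of all other genes are given in this order too. The arrays up to 12 h all lay above those from 24 h on, and the 72 h array was no lower than that of 48 h (fitted change -0.94, SE 0.25, adjusted p = 0.0175). The test did not pass without the 2 h array (adjusted p = 0.0546) or the 48 h array (adjusted p = 0.0570). At 72 h it stood at 0.487 times its 0 h signal, a difference of under 200 signal units. Its mean signal of 143 was the lowest of the mitosis genes, and its 48 and 72 h signals were under 100, which limits how large a decline can be read. A second probe set of Foxm1, with a mean signal of 20.7 and so not tested, read 61.5 at 0 h and 3.66 at 72 h.

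The 5 genes of the mitotic cyclins, CDK1 and its partner all fell, with a median fitted change of -2.33. Ccnb2, a B-type cyclin whose promoter is shown above, had signals of 1271, 965, 709, 882, 651, 308 and 129. It was highest at 0 h and lowest at 72 h, and the 12 h array stood above that of 6 h but below that of 0 h (fitted change -2.72, SE 0.22, adjusted p = 1.44e-04). Ccna2, cyclin A2, which acts in S phase and at entry into mitosis, had signals of 888, 781, 386, 586, 304, 143 and 98.4. It was already at 0.435 times its 0 h signal at 6 h, was higher again at 12 h, and was at 0.111 times at 72 h (fitted change -2.72, SE 0.32, adjusted p = 5.50e-04). Ccnb1, the main partner of CDK1 at mitotic entry, had signals of 812, 572, 523, 512, 388, 188 and 114, lower on each array than on the one before (fitted change -2.33, SE 0.19, adjusted p = 1.44e-04). Cdk1, the kinase itself, had signals of 1344, 1163, 864, 864, 766, 562 and 544. Its decline was shallower than that of the cyclins, with 0.405 times the 0 h signal at 72 h (fitted change -1.13, SE 0.21, adjusted p = 0.00365). Cks2, a small protein that binds CDK1, had signals of 2143, 1838, 1888, 2071, 1528, 1258 and 872. It was still at 0.966 times its 0 h signal at 12 h, and at 0.407 times at 72 h (fitted change -1.18, SE 0.14, adjusted p = 5.97e-04).

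The 3 mitotic kinases measured beside CDK1 fell too, but not alike. Melk, a kinase of dividing progenitor cells, had signals of 695, 614, 494, 533, 381, 231 and 120.4, and every array from 24 h on lay below every earlier one (fitted change -2.13, SE 0.16, adjusted p = 1.23e-04). Plk1, which drives centrosome maturation and spindle assembly, had signals of 585, 399, 426, 432, 331, 154 and 111, flat from 2 to 12 h and lower after it (fitted change -1.99, SE 0.21, adjusted p = 3.29e-04). Aurka, the centrosome and spindle kinase Aurora A, had the shallowest slope of all genes that fell, with signals of 317, 324, 319.7, 287, 274, 246 and 174. Its arrays from 0 to 6 h lay between 317 and 324, and at 72 h it was at 0.548 times the 0 h signal (fitted change -0.73, SE 0.16, adjusted p = 0.00941). Without the 72 h array the change of Aurka did not pass the test (adjusted p = 0.191), and it did not on a scale of log2(hours + 1) (adjusted p = 0.0623).

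The chromosomal passenger complex corrects faulty attachments of chromosomes and later acts at the site of division, and its 3 measured members among the mitosis genes fell. Aurkb, its kinase Aurora B, had signals of 509.9, 549.5, 453, 401, 328, 238 and 123. Only 2 h lay above 0 h, and each array after it was lower than the one before (fitted change -1.77, SE 0.16, adjusted p = 2.10e-04). Birc5, or survivin, had signals of 455, 367, 281, 278, 211, 149.7 and 95.3 and was lower at every step (fitted change -1.71, SE 0.21, adjusted p = 6.73e-04). Cdca8, or borealin, had signals of 398, 374, 340.1, 405, 274, 187 and 144. Its 12 h array lay above that of 0 h, and all arrays from 24 h were lower than the earlier ones (fitted change -1.34, SE 0.18, adjusted p = 0.00105). Incenp, the scaffold of the complex, was not in the group, and its fitted change of -0.22 did not pass (adjusted p = 0.471).

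Of the 5 spindle checkpoint genes 4 fell, and the group held both the most and the least negative slope of all mitosis genes. Ttk, or Mps1, the kinase that starts checkpoint signalling at unattached kinetochores, had signals of 532, 483, 338, 325, 232, 79.5 and 39.2. It was lower on every array than on the one before, and at 72 h it was at 0.0737 times the 0 h signal (fitted change -2.98, SE 0.21, adjusted p = 1.12e-04). Its last values of 79.5 and 39.2 lie in the range where MAS5 signals are least reliable, so that its ratio rests on a dim array. Bub1, a kinetochore kinase, had signals of 727, 714, 517, 635, 362, 219 and 125 (fitted change -2.27, SE 0.19, adjusted p = 1.44e-04). Bub1b, or BubR1, an inhibitor of the anaphase-promoting complex, had signals of 364, 311, 237, 235, 202, 152 and 88.1 (fitted change -1.48, SE 0.20, adjusted p = 0.00113). The arrays of Bub1 and Bub1b from 24 h on were lower than all their earlier ones. Mad2l1, whose protein MAD2 binds CDC20, had signals of 532, 449.5, 517, 404, 351, 256 and 226 (fitted change -1.13, SE 0.17, adjusted p = 0.00165). Of its other probe sets, the second by mean signal had a fitted change of -0.62 that did not pass (adjusted p = 0.0719) and the third fell by 0.83 (adjusted p = 0.0363).

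Bub3, the protein that brings BUB1 and BUBR1 to the kinetochore, did not pass the test. Its signals were 2670.3, 2798, 2352, 2697, 2292, 2320.3 and 2268, so that the lowest array was at 0.850 times and the highest at 1.05 times the 0 h signal (fitted change -0.24, SE 0.13, adjusted p = 0.181). Its other tested probe set had a fitted change of -0.26 (adjusted p = 0.419).

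The kinetochore genes Nuf2 and Spc25, subunits of the NDC80 complex that holds microtubules, moved with each other. Spc24, a subunit outside the group, had a slope like theirs. Nuf2 had signals of 712, 625, 472, 533, 378, 217 and 146 (fitted change -1.99, SE 0.18, adjusted p = 1.92e-04). Spc25 had signals of 952, 775, 654, 710.4, 437, 343 and 209.9 (fitted change -1.85, SE 0.18, adjusted p = 2.70e-04). For both the 12 h array was a little above the 6 h array and all later ones were lower. The fitted change of Spc24 was -1.82 (adjusted p = 1.84e-04), but its 12 h array (509) was below that of 6 h (527). Cenpf, an outer kinetochore protein of G2 and M phase, had signals of 467, 370.0, 229.5, 392, 290.2, 216 and 111, with a low array at 6 h that lay beside the 48 h value (fitted change -1.42, SE 0.29, adjusted p = 0.00564). Without the 72 h array Cenpf did not pass the test (adjusted p = 0.148).

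Chromosome structure split into a strong and a weak part. Mki67, which coats mitotic chromosomes and is the usual marker of cycling cells, had signals of 1452, 1256, 1016, 1222, 788, 447 and 215, and the 72 h array was at 0.148 times the 0 h array (fitted change -2.46, SE 0.17, adjusted p = 1.12e-04). Top2a, the topoisomerase that untangles sister DNA, had signals of 1025, 769, 488, 558, 459.7, 240.1 and 139.6 and was below 0.5 times its 0 h signal at 6 h and from 24 h on (fitted change -2.29, SE 0.25, adjusted p = 3.62e-04). The condensin genes had slopes nearer to 0. Ncaph, a subunit of condensin I, had signals of 755, 658, 665, 709.9, 524, 432 and 363 (fitted change -0.97, SE 0.15, adjusted p = 0.00180). Smc2, the subunit shared by both condensins, had signals of 576, 562, 311, 409, 345, 303 and 256 (fitted change -0.87, SE 0.26, adjusted p = 0.0292), and its adjusted p was 0.0527, 0.0825, 0.0720 and 0.129 without the 0, 2, 48 and 72 h arrays. Smc4, its partner, had signals of 214, 303, 182, 168, 228, 186 and 105, highest at 2 h and near its 0 h value at 24 h, and did not pass (fitted change -0.78, SE 0.28, adjusted p = 0.0580). It passed without the 6 h array (adjusted p = 0.0497) and without the 12 h array (adjusted p = 0.0478). A second probe set of Smc4, with a mean signal under 100 and so not tested, read 93.6 at 72 h and 64.7 at 0 h.

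The 4 spindle motors and microtubule proteins fell by similar amounts, with fitted changes from -2.18 to -1.66. Nusap1, which stabilises spindle microtubules, had signals of 811, 556, 533, 519, 419, 206 and 132 and was lower at every step (fitted change -2.15, SE 0.19, adjusted p = 1.92e-04). Hmmr, a microtubule and hyaluronan binding protein, had signals of 436, 368, 253, 342, 245, 92.3 and 69.5, and its 48 and 72 h arrays were below 100 (fitted change -2.18, SE 0.26, adjusted p = 5.41e-04). Kif2c, a motor that shortens microtubules at kinetochores, had signals of 380.1, 350.0, 274, 325, 246, 156 and 89.3 (fitted change -1.66, SE 0.19, adjusted p = 4.63e-04). Kif11, the motor that pushes the spindle poles apart, had signals of 501, 389, 325, 374, 267, 146 and 103 (fitted change -1.85, SE 0.20, adjusted p = 3.69e-04). In both motors the 12 h array was above the 6 h array and the later ones were below all earlier ones.

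Genes of anaphase and of protein destruction included some of the strongest declines. Ube2c, the enzyme that passes ubiquitin to the targets of the anaphase-promoting complex, had signals of 1285, 926, 836, 697, 485, 236 and 159. It was lower at every step and at 0.124 times the 0 h signal at 72 h (fitted change -2.66, SE 0.21, adjusted p = 1.24e-04). Cdc20, the activator of the complex, had signals of 720.5, 535, 551, 572, 318, 156 and 107, between 535 and 572 from 2 to 12 h and lower on each later array (fitted change -2.44, SE 0.21, adjusted p = 1.83e-04). Cdc20 is read by a probe set whose suffix marks that it may detect more than 1 transcript, and its second probe set fell as well (-1.71, adjusted p = 3.58e-04). Cdca3, an adaptor for the destruction of the mitotic inhibitor WEE1, had signals of 1105, 1049, 813, 761, 567, 293 and 229 (fitted change -2.17, SE 0.18, adjusted p = 1.44e-04). Pttg1, or securin, which holds back separase, had signals of 1006, 892, 884, 1045, 833, 591 and 442. Its 12 h array was its highest, and at 72 h it was at 0.439 times the 0 h signal (fitted change -1.10, SE 0.16, adjusted p = 0.00142).

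The 5 genes of the central spindle and cytokinesis fell, with a median fitted change of -1.61. Prc1, which bundles the antiparallel microtubules of the midzone, had signals of 923, 983, 876, 927, 738, 409 and 361. Up to 12 h it stayed between 0.950 and 1.07 times its 0 h signal. Its largest step, among steps of unequal length, was that between 24 and 48 h (fitted change -1.48, SE 0.17, adjusted p = 4.63e-04). Kif23 and Racgap1 form the centralspindlin complex. Kif23 had signals of 601, 512, 263, 299, 233, 142 and 151, with its largest step between 2 and 6 h (fitted change -1.61, SE 0.35, adjusted p = 0.00755). Racgap1 had signals of 1142, 888, 660.5, 757, 528, 386 and 352 (fitted change -1.44, SE 0.23, adjusted p = 0.00209). Ect2, which binds centralspindlin and activates RhoA for the contractile ring, had signals of 856, 673, 462, 488, 365, 213 and 133, and fell most of these genes (fitted change -2.18, SE 0.22, adjusted p = 2.76e-04). Kif20a, the motor that carries the passenger complex to the midzone, had signals of 609, 496, 492, 489, 410.3, 201 and 127, flat from 2 to 12 h (fitted change -1.95, SE 0.17, adjusted p = 1.92e-04).

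**Figure D2:**
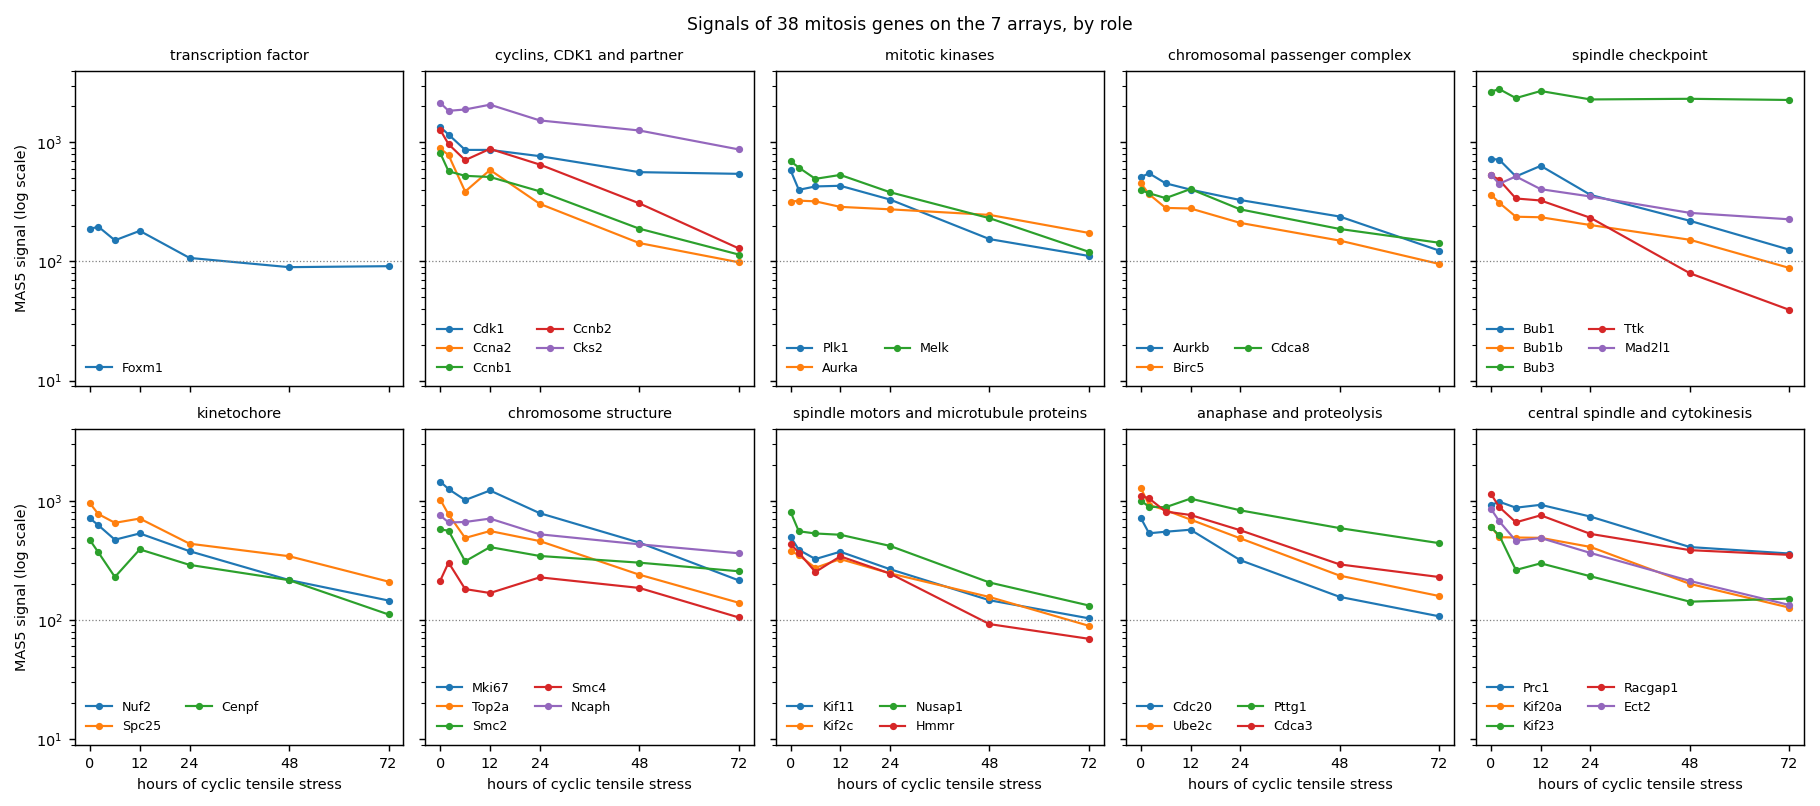
MAS5 signal (log scale) of each of the 38 mitosis genes against hours of cyclic tensile stress, 1 point per array, in 10 panels by role; the dotted line marks a signal of 100. Most lines run downward, Ttk most of all with 39.2 at 72 h, while Bub3 stays between 2268 and 2798 on all 7 arrays.

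The number of genes far below the 0 h array grew over the hours. By a rule of size taken from the methods, a signal at most 0.5 times that of the 0 h array together with a difference of at least 200, no gene was lower at 2 h (0.824% of all probe sets tested were), 4 were lower at 6 h (2.13%) and 1 at 12 h (2.98%). The count was 12 at 24 h (2.28%), 30 at 48 h (5.30%) and 34 at 72 h (6.16%), and no mitosis gene was higher by the rule at any time. The rule carries no test, and since every array is set against the same baseline its counts say nothing of when the rate was largest. Its early counts depend on its limits, as 18 genes were lower at 6 h with a ratio of 1.5 and a difference of 100 (9.94% of all probe sets tested were) and none was with a ratio of 3 (0.203%). The 4 genes lower at 6 h were Ccna2, Cenpf, Top2a and Kif23, and Kif23 was the 1 at 12 h. The 4 that did not meet the rule at 72 h were Foxm1, Aurka, Smc4 and Bub3. The median ratio to the 0 h array over the mitosis genes was 0.861 at 2 h, 0.693 at 6 h, 0.754 at 12 h, 0.552 at 24 h, 0.331 at 48 h and 0.215 at 72 h. At 72 h 7 genes had a signal under 100, and none had at 0 h.

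**Figure D3:**
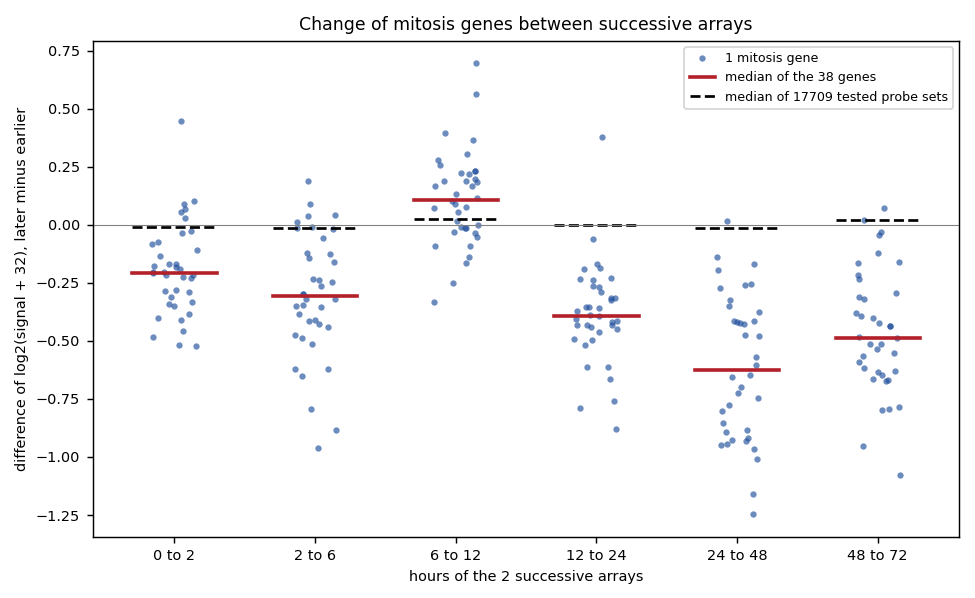
Difference of log2(signal + 32) between each array and the one before, 1 point per mitosis gene, with the median of the 38 genes (red line) and of all 17709 probe sets tested (dashed line). The median of the mitosis genes is below 0 at every step except that between 6 and 12 h, where it is 0.11, and lowest between 24 and 48 h, at -0.63. The steps span unequal numbers of hours, so their sizes are not rates.

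Between successive arrays the genes moved mostly together. From 0 to 2 h 32 genes were lower (51.6% of all probe sets tested were), from 2 to 6 h 33 (51.9%), from 12 to 24 h 37 (50.6%), from 24 to 48 h 37 (51.7%) and from 48 to 72 h 36 (46.8%). These counts were made after the values had been seen. The step between 6 and 12 h went the other way in 26 genes (53.9% of all probe sets were higher), and 8 genes were at least 1.2 times as high at 12 h as at 6 h (21.4%), a share like that of all probe sets. They included Cenpf at 1.71 times, Ccna2 at 1.52 times, Hmmr at 1.35 times and Smc2 at 1.32 times their 6 h signals. With every array scaled to the same median, which moved the median of all probe sets by 0.07 to 0.16 log2 units, 26 genes were lower at 2 h than at 0 h (31.7% of all probe sets were). Ccnb1, Birc5, Bub1b, Ttk, Nusap1, Ube2c, Cdca3 and Kif20a were lower at every step, and in 36 genes the lowest of the 7 arrays was that of 72 h.

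A line with a change of slope at 24 h put the median rate at -0.69 log2 units per day before and -0.58 per day after 24 h. All 38 genes had a negative rate in both parts, and 14 had the steeper one after 24 h. The change of slope passed the test in limma for no mitosis gene and for 0% of all probe sets. Before adjustment, 1 mitosis gene (Kif23) and 1440 of all 17709 probe sets had a limma p under 0.05. Whether the rate changed was not resolved.

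The genes with more than 1 probe set gave a check within the array. Of 18 further probe sets 10, of 9 genes, were bright enough to test, and 8 of them fell and none rose. All 10 were lower at 72 h than at 0 h. For Ccnb1 the second probe set had a fitted change of -2.68 and the first one of -2.33, and for Hmmr the second had -1.40 and the first -2.18. The size of a decline differed between probe sets of a gene, while its direction did not among the 10 tested.

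Other genes of the mitotic machinery were taken as lists by role. For the counts of every list from here on, the shares over all probe sets tested are 14.1% that fell and 15.0% that rose. Of 15 other spindle and motor genes tested 12 fell and 1 rose, with a median fitted change of -1.22, and 10 fell without the 72 h array. Spag5 (-1.91), Kif15 (-1.83), Kif20b (-1.81) and Haus1 (-1.46) led them. Numa1, a spindle pole protein that is also present in interphase nuclei, rose by 0.60 (adjusted p = 0.00942), which did not pass without the 72 h array. Of 22 other kinetochore and checkpoint genes 12 fell and none rose, with a median of -0.77, and 9 to 11 fell with 1 array left out. Cenpw (-1.98), Ska1 (-1.88), Spc24 (-1.82) and Cenpk (-1.38) led these.

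The lists of cohesin, condensin and separase, of the anaphase-promoting complex and of mitotic entry regulators had medians nearer to 0. Of 14 genes of cohesin, condensin and separase 4 fell and 2 rose, with a median of -0.03, and without the 72 h array none passed in either direction (1 or 2 rose with any other array left out). The share that rose was near that of all probe sets tested (15.0%). Espl1, separase, fell by 1.47, Esco2, which acetylates cohesin, by 1.17 and Ncapg2, a condensin II subunit, by 0.99, and Stag1, a cohesin subunit, rose by 0.88. Of 17 genes of the anaphase-promoting complex 4 fell and none rose, with a median of -0.19, and 2 fell without the 48 h array. The inhibitor Fbxo5, or EMI1, fell by 1.35, but not without the 48 h array, and the ubiquitin-conjugating enzyme Ube2d1 fell by 0.63, but not without the 48 or the 72 h array. The small subunits Anapc15 (-1.04, adjusted p = 0.00206) and Anapc13 (-0.87, adjusted p = 0.00659) fell, and did so with any 1 array left out. Of 13 regulators of mitotic entry 2 fell and 2 rose, shares near those of all probe sets tested (14.1% and 15.0%). The falling ones were Wee1 (-1.01) and Ccnf (-1.02). Ccnf and the rising Arpp19 (0.52) did not pass without the 72 h array, and the rise of Ppp2r2a (0.35) was lost when any 1 of the 6 later arrays was left out.

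Earlier in the cycle, 7 of 15 G1 cyclins, kinases and CDK inhibitors fell and none rose, with a median of -0.30, and 5 to 7 fell with 1 array left out. Ccne2, cyclin E2, fell by 2.22, Ccnd1, cyclin D1, by 1.44 and Cdkn2c, the inhibitor p18, by 1.42. Cdkn1c, the inhibitor p57, fell by 1.23, though not without the 2 or the 72 h array. Cdkn1a, or p21, had signals of 3732, 4041, 4594, 3837, 5217, 5800.4 and 4879.6. At 1.31 times its 0 h signal at 72 h it did not pass (adjusted p = 0.0872), though it did, as higher, without the 72 h array (adjusted p = 0.0339). Cdkn1b, or p27, had signals of 4082, 3093, 3843, 4272, 3147, 5279 and 5191. It was at 1.27 times its 0 h signal at 72 h and did not pass either (adjusted p = 0.0618), though it did, as higher, without the 0 h array (adjusted p = 0.0315) or the 24 h array (adjusted p = 0.0349).

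Of 21 genes of the E2F, RB, MuvB and MYB families, to which the regulators of G2 and M phase genes belong, 3 fell and 5 rose, with a median of 0.11. The share that fell was near that of all probe sets tested (14.1%). Lin9, a core subunit of MuvB, rose, with signals of 189, 238, 166, 241, 243, 415 and 649 (fitted change 1.59, adjusted p = 9.89e-04). Tfdp2, a partner of E2F, rose by 1.30. Mybl2, or B-MYB, which joins MuvB in dividing cells, fell by 1.36. E2f1 fell by 1.11, though not without the 72 h array. Without the 72 h array 2 of the 21 genes rose, and 3 did without the 2 or the 48 h array.

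**Figure D4:**
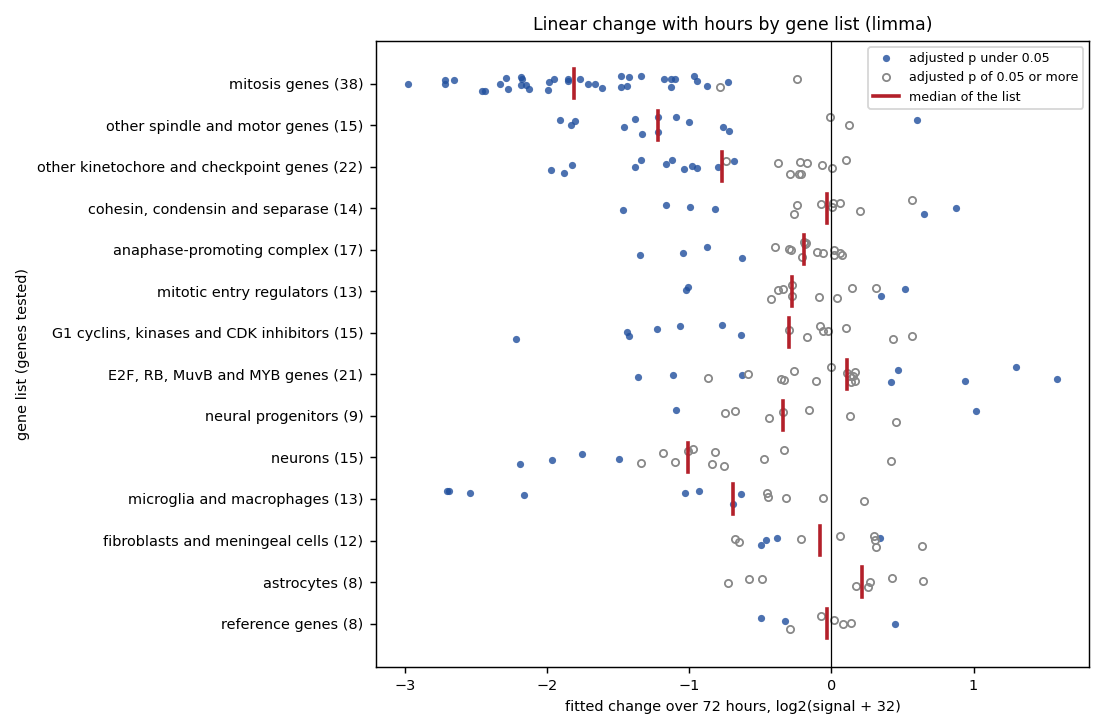
Fitted change over 72 hours of log2(signal + 32) for each gene tested of the mitosis group and of 13 other lists, with filled points for genes that passed the test in limma, open points for those that did not, and the list median in red. The median is -1.81 in the mitosis genes and -1.22 in the other spindle genes, while those of cohesin and of the reference genes both lie at -0.03.

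The makeup of the culture and the quality of the RNA moved over the same hours. The summed signal of 16 neuron markers was 24138, 14549.7, 12083, 7874, 10558, 6765 and 8472 over the 7 arrays, with its lowest value at 48 h. Of 15 neuron markers tested 4 fell, Gap43 most (-2.19), with a median of -1.01, and 1 fell without the 48 h array, 2 without the 2 h array and 9 without the 12 h array. By the size rule, which does not ask for a straight line, 12 of the 15 were lower at 72 h (6.16% of all probe sets tested were). The drop of the neuron markers was early, at -1.66 log2 units in the median at 12 h, when the median of the mitosis genes was -0.38. Rbfox3, or NeuN, was at 113 at 72 h and 379 at 0 h and did not pass the test in limma (adjusted p = 0.0662). Gad1, of the same list, was at 0.983 times its 0 h signal at 72 h and did not pass either. The summed signal of 14 microglia and macrophage markers was 79826, 89685, 103888, 83629, 88911, 76928 and 54097, highest at 6 h and lowest at 72 h, and 8 of 13 tested fell, led by C1qc (-2.70), C1qa (-2.69), Aif1 (-2.54) and C1qb (-2.16). The other 5 of these 13 did not pass, among them Csf1r at 0.950 and Laptm5 at 1.31 times their 0 h signals at 72 h. Without the 72 h array 4 of the 13 fell.

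Neural progenitor markers, from cells that divide in the embryonic cord, gave few calls. Their summed signal over 15 genes was 40311, 40172, 36221, 42974, 43852, 34359 and 33805. Vim and Fabp7, at 22170 and 13072 on the 0 h array, made up most of that sum, so it says little of the other genes. Of 9 genes tested 1 fell and 1 rose, with a median of -0.34. Nes, nestin, fell by 1.10, and Pax6 rose by 1.02, a call that was lost when the 2, 24, 48 or 72 h array was left out. Sox1, Hes5, Neurog2, Olig2 and Dll1 were near the floor, each under 100 on the 72 and the 0 h array. The 12 fibroblast and meningeal markers summed to 100953, 97959, 95614, 102274, 100169, 88698 and 101018, and of 12 tested 3 fell and 1 rose, or 1 to 4 and 0 or 1 with 1 array left out. No astrocyte marker of 8 tested passed, and 1 did without the 6 h array. Of 10 skeletal muscle markers tested 1 fell, Chrna1 (-1.65), not passing without the 2, 6 or 72 h array, and the summed signal of 12 was 13296, 5327, 7386, 5013, 4511, 7507 and 3374. By the size rule 9 of these 10 markers were lower at 72 h (6.16% of all probe sets tested were). One of 6 oligodendrocyte markers (Olig1, -1.22) fell, not without the 48 h array, and 1 of 3 endothelial markers (Emcn, 0.90) rose, not without the 48 h array. Of 8 reference genes 2 fell and 1 rose, or 0 to 2 and 0 or 1 with 1 array left out, with a median of -0.03. The ratio of the 3′ to the 5′ probe sets of beta-actin, a sign of RNA integrity that is higher where RNA or labelled product is shorter, was 1.82, 1.53, 1.83, 1.95, 2.20, 2.54 and 2.62 over the arrays, and that of hexokinase was 2.75, 2.55, 3.12, 3.16, 3.57, 4.15 and 4.24. That of Gapdh stayed between 1.09 and 1.17. The part of these shifts in the decline of the mitosis genes was not tested.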

How the data were processed

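The authors hybridised labelled RNA, pooled from several animals at each time, to 7 arrays, processed them in GCOS and deposited 1 MAS5 signal intensity per probe set with global scaling. The deposited intensities are linear, and after trimming 2% at either end they average 500.1 to 500.2 on every array, so that a shift of all transcripts together would not show. Between 42.5% and 44.3% of the probe sets of an array had a signal under 100, where MAS5 values are least reliable. Detection calls were not used here.

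Of 31099 probe sets the 57 controls were left out. By the platform annotation 20826 of the other 31042 have 1 symbol, 436 several and 9780 none. All 38 symbols are current in RefSeq GRCr8, from which only names and promoter windows were taken. The 17709 probe sets averaging 100 or more were tested for a linear change with hours on log2(signal + 32), with limma 3.58.1 (R 4.3.3, lmFit and eBayes with intensity trend, 5 residual degrees of freedom), and p-values were adjusted over all of them by Benjamini-Hochberg. A change of slope at 24 hours was a second term (4 residual degrees of freedom). The pseudocount of 32 makes the changes of dim probe sets smaller. Single times were compared with 0 hours by the size rule of the methods only. The scripts were tested on simulated data. Python 3.11.15 served for the counts.

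The members and the gene lists were chosen with earlier results of these data known. All members are named; each role group gives its gene of highest mean signal and those of most and least negative slope in full, and each other list up to 4 genes past the test by size of slope, with Cdkn1a, Cdkn1b and Ccnd1. Incenp, Numa1, Rbfox3, Gad1, Csf1r, Laptm5, Vim and Fabp7 were named, and the neuron and muscle lists counted by the size rule, after their values were seen. Other pseudocounts, scalings, filters, time scales, baselines, size limits and probe sets, and each array left out, were tried; leaving arrays out of the slope change and of the lists, and rescaling the 6 to 12 h step, were added after seeing the data.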

Additional observations from a re-analysis of the deposited data

How the results depend on the processing

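The count of mitosis genes that fell with hours was 33 to 37 of 38 with 1 array left out, 35 of 36 with a minimum mean of 200, 35 with time as log2(hours + 1) and 36 under the other 8 alternatives fitted to all 38 genes, and none rose. Of the 9 genes with a second tested probe set, 7 fell by that set and 8 by the first. Of 653 alternative slopes of single genes 641 kept their direction and side of the threshold, 10 no longer passed, 2 newly passed and none reversed. No change of slope was called under any of 13 alternatives. The size rule moved most at the early times. With a ratio of 1.5 and a difference of 100, 18 genes were lower at 6 h (9.94% of all probe sets tested), 12 at 12 h (8.80%) and 28 at 24 h (8.68%), and with a ratio of 3 the count was 0 at each of these times (0.203%, 1.33% and 0.435%). Against the mean of the 0 and 2 h arrays the counts were 2 at 6 h (0.480%), 0 at 12 h (1.42%) and 5 at 24 h (0.723%). Scaling to the same median gave 2 at 6 h (1.10%) and 0 at 12 h (2.21%), and quantile normalization 0 at 12 h (2.60%). The median change at 72 h was -2.21 with a pseudocount of 1 and -1.73 with 64. In the 14 genes with a second probe set, that set gave median changes of -0.17 at 6 h and -0.17 at 12 h. They were -0.57 at 24 h, -1.21 at 48 h and -1.58 at 72 h, each nearer to 0 than that of the first set. The pseudocount in these changes makes those of dim probe sets smaller. The second sets of Foxm1, Ttk, Smc4, Kif11 and Kif23 had mean signals under 100. The raw ratio of 72 h to 0 h was lower by the second set in Foxm1, Ccnb1, Bub3, Kif11, Kif2c, Nusap1 and Racgap1. In the other genes it was higher, so the second sets did not decline less throughout at 72 h. At 12 h 24 genes were above their 6 h signal with arrays scaled to the same median (50.4% of all probe sets) and 23 after quantile normalization (51.2%). No paired analysis was possible because each time has 1 array. Signals under 100, which 7 genes had at 72 h, limit how large a decline can be read, and the cause of these shifts was not tested.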
